A study of Mus musculus with 4 samples.

Results

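The 46 genes described here carry out DNA replication or belong to the S phase programme. They were taken as a list of symbols, and each was measured by the transcript clusters (probe groups of the array) that the platform's gene table pairs with that symbol and no other. All 46 genes were measured, in 50 of the 21789 clusters that carry exactly 1 symbol; these clusters stand for 19938 genes, out of 35556 clusters on the array. Where a gene had more than 1 such cluster, the one with the highest mean represents it. The genes fall by role into origin licensing and helicase (16 genes), polymerases and fork factors (20), nucleotide supply (4), chromatin assembly and histone mRNA (3) and regulators of the G1 to S step (3).

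Expression was measured on 4 Affymetrix whole-transcript arrays of CH12.F3, a B lymphoma cell line of the mouse that can switch from IgM to IgA in culture. Control cells and Mbd4 KO cells were each measured on 2 arrays; the latter lack Mbd4, a DNA glycosylase that removes thymine or uracil mispaired with guanine. Cells of both groups had grown in 6% FCS and had been stimulated for 24 hours with CD40L (25% by volume), TGFb (0.2 ng/ml) and IL4 (5 ng/ml), so no group shows unstimulated cells. The study compares stimulated cells with and without Mbd4. The labels call the samples of a group independent, but give neither separate cultures nor the number of knockout clones. The p-values thus rest on the spread between arrays, possibly a technical one, and a difference due to Mbd4 and one between cell clones cannot be told apart.

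Mbd4 itself was measured at 8.74 and 8.77 (log2) on the control arrays and at 6.47 and 6.49 on the Mbd4 KO arrays. The arrays therefore rank as labelled (difference -2.28, SE 0.066; limma adjusted p = 0.0002); the position of its probes relative to the deletion is unknown here. Array medians lay between 6.94 and 6.98. The 7 B cell markers measured were bright, with means from 10.46 to 12.59. The means of the 5 T cell markers lay from 5.29 to 6.85, of the 8 fibroblast markers from 4.47 to 7.59 and of the 8 myeloid markers from 5.14 to 10.17. None of these marker genes passed the test between the groups.

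DNA replication starts at origins, where the origin recognition complex, Cdc6 and Cdt1 load the ring-shaped MCM helicase onto DNA. In S phase Cdc45 and the GINS complex join MCM to form the active helicase, and polymerases alpha, delta and epsilon copy the strands behind it with the sliding clamp PCNA, its loader RFC and the single-strand binding complex RPA. Ribonucleotide reductase, thymidylate synthase and thymidine kinase supply deoxynucleotides, and the CAF-1 complex places histones on the new DNA. Most of these genes are transcribed at the G1 to S boundary under the control of E2F transcription factors. Stimulated B cells depend on the programme because class switching takes place in dividing cells.

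Promoters are shown for the genes on which the results turn. They are RefSeq sequences of build GRCm38.p6, each running 5′ to 3′ on the gene's strand from 250 bases before the start site to 50 bases after it. Capitals mark the E2F-type motifs TTTCCCGC, TTTGGCGC, TTTCGCGC and TTTGCCGC and the CCAAT box, searched on both strands, so that GCGGGAAA, GCGCCAAA, GCGCGAAA, GCGGCAAA and ATTGG are marked too. E2F-type motifs can overlap each other. Chaf1b, the 1 gene of the list that passed the test between the groups, lies on chromosome 16 (chr16:93883651-93883950, plus strand).
Chaf1b: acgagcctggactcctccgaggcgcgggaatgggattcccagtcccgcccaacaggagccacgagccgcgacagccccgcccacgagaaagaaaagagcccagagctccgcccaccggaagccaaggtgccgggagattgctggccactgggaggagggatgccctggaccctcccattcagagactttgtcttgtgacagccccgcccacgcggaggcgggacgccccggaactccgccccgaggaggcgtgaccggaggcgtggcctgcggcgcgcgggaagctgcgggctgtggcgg
Cdc45 (chr16:18811923-18812222, minus strand) and the next gene, Ufd1 (chr16:18812044-18812343, plus strand), are shown because they start on opposite strands 322 bases apart, their windows share 179 bases, and both were lower on the Mbd4 KO arrays.
Cdc45: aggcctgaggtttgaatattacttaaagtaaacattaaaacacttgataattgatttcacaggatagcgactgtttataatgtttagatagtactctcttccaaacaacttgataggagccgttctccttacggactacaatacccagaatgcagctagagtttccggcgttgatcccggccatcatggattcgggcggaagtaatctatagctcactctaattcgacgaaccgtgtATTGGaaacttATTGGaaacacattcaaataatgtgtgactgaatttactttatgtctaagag
Ufd1: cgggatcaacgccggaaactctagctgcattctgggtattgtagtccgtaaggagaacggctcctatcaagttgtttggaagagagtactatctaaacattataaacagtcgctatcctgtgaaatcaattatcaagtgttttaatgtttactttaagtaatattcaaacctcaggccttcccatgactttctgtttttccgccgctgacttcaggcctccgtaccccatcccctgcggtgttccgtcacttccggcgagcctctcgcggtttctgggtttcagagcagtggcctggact
Rrm2 (chr12:24708004-24708303, plus strand) and Pole2 (chr12:69228141-69228440, minus strand) had the largest negative differences among the genes outside chromosome 16.
Rrm2: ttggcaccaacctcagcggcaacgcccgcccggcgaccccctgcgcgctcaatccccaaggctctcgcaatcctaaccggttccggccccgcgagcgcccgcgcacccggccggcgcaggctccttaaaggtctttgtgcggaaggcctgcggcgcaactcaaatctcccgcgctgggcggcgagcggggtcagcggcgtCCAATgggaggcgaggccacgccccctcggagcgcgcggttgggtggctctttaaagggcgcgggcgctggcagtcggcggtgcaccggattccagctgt
Pole2: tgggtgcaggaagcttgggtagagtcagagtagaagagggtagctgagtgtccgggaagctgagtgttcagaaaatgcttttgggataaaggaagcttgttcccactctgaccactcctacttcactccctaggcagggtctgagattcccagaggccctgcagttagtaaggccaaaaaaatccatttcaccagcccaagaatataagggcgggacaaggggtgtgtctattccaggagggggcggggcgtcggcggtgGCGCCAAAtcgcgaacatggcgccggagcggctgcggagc
Cdt1 (chr8:122567765-122568064, plus strand) had the largest positive difference of the 46.
Cdt1: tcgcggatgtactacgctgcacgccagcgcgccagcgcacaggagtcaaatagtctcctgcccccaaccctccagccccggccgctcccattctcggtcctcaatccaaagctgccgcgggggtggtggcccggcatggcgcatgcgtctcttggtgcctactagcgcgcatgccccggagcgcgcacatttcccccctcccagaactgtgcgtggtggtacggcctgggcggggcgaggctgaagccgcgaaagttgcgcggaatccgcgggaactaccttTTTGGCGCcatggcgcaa
Mcm5 (chr8:75109259-75109558, plus strand) and Mcm6 (chr1:128359656-128359955, minus strand) show the E2F-type motifs of helicase subunits whose differences were close to zero.
Mcm5: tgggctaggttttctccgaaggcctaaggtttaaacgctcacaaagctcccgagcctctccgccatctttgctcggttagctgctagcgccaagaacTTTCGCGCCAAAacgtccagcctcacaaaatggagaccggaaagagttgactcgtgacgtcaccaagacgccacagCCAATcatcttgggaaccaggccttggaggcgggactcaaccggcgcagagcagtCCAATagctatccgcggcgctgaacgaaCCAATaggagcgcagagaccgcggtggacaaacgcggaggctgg
Mcm6: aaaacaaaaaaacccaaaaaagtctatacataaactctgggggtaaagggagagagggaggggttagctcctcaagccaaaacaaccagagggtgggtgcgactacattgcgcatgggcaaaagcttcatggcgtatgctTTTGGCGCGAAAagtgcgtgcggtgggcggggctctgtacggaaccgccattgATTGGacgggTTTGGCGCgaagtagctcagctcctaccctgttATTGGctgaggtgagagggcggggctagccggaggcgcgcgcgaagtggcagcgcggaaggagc

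Of the 46 genes, 38 had a promoter in the RefSeq table. An E2F-type motif was found for 13 of these 38 genes (34.2%), against 704 of 27025 genes with a promoter (2.6%) and 288 of 5114 measured genes at least as bright as the dimmest of the 46 (5.63%). A gene with several windows, such as Mcm7, Pold2 or Fen1, counted if any of them held the motif. The motif was found for 8 of 12 licensing and helicase genes with a promoter (66.7%), namely Orc1, Cdc6, Cdt1, Mcm3, Mcm5, Mcm6, Mcm7 and Gins3. Among polymerases and fork factors 5 of 17 held it (29.4%): Pola1, Pole2, Pold1, Pold3 and Rfc3. No window of the other groups held it, and those of Chaf1b and Rrm2 shown above are among them. E2F sites of other spelling or outside the windows were not searched, so these genes may still have some. CCAAT was found for 24 of the 38 genes (63.2%), against 41.1% of all genes with a promoter and 15 of 16 genes of G2 and mitosis (93.8%). Mbd4 KO minus control differences had a median of 0.06 (log2; from -0.35 to 0.24) over the 13 genes with an E2F-type motif and of -0.04 (from -0.44 to 0.16) over the 25 without. The 25 included Cdc45 (-0.28), Rfc4 (-0.09) and Chaf1b (-0.44) on chromosome 16, and the 13 no gene of that chromosome. The 2 sets thus also differed in position, described below, and its part was not tested. These are descriptions of letters in a window, and no factor's binding was measured.

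As a group the replication genes lay at nearly the same level in Mbd4 KO and control cells, with a median difference of -0.02 (log2) against 0.02 over all clusters tested. Chaf1b fell and no gene rose at a limma adjusted p under 0.05, with Benjamini-Hochberg adjustment over all 21789 clusters. That is 2.17% of the 46 genes, where 1.39% of all clusters passed, and 0.955% of them as lower. At an unadjusted limma p under 0.05 there were 8 genes (17.4%; all clusters 13.8%): Chaf1b, Mcm4, Rrm2, Pole2, Cdc45, Pold4 and Gins4 as lower, and Cdt1 as higher. The differences of 27 genes lay below zero and those of 19 above, where 9245 of all clusters lay below and 12544 above. All 46 lay between -0.44 and 0.24, with 95% intervals of the limma fit reaching 0.16 to 0.31 to either side. Differences of about this size could therefore go unseen. With an intensity trend in limma's prior 6 genes passed (Mcm4, Cdc45, Rrm2, Pole2 and Chaf1b as lower, Cdt1 as higher), where 5.14% of all clusters did.

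On 18 of the 46 genes (39.1%) both Mbd4 KO arrays lay below both control arrays, where 18.3% of all clusters did so. On 11 genes (23.9%) both Mbd4 KO arrays lay above, against 26.7% of all clusters, and on 17 the groups overlapped. The background depends on brightness: among the 6175 other genes at least as bright as the dimmest of the 46, with a mean of 8.87, the Mbd4 KO arrays lay below in 25.3% and above in 30.9%. None of the 46 lay in the dimmest 30% of clusters, and no filter on low values was applied. In RNA from whole cultures, fewer cells in S phase and less RNA of these genes per cell cannot be told apart.

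**Figure D1:**
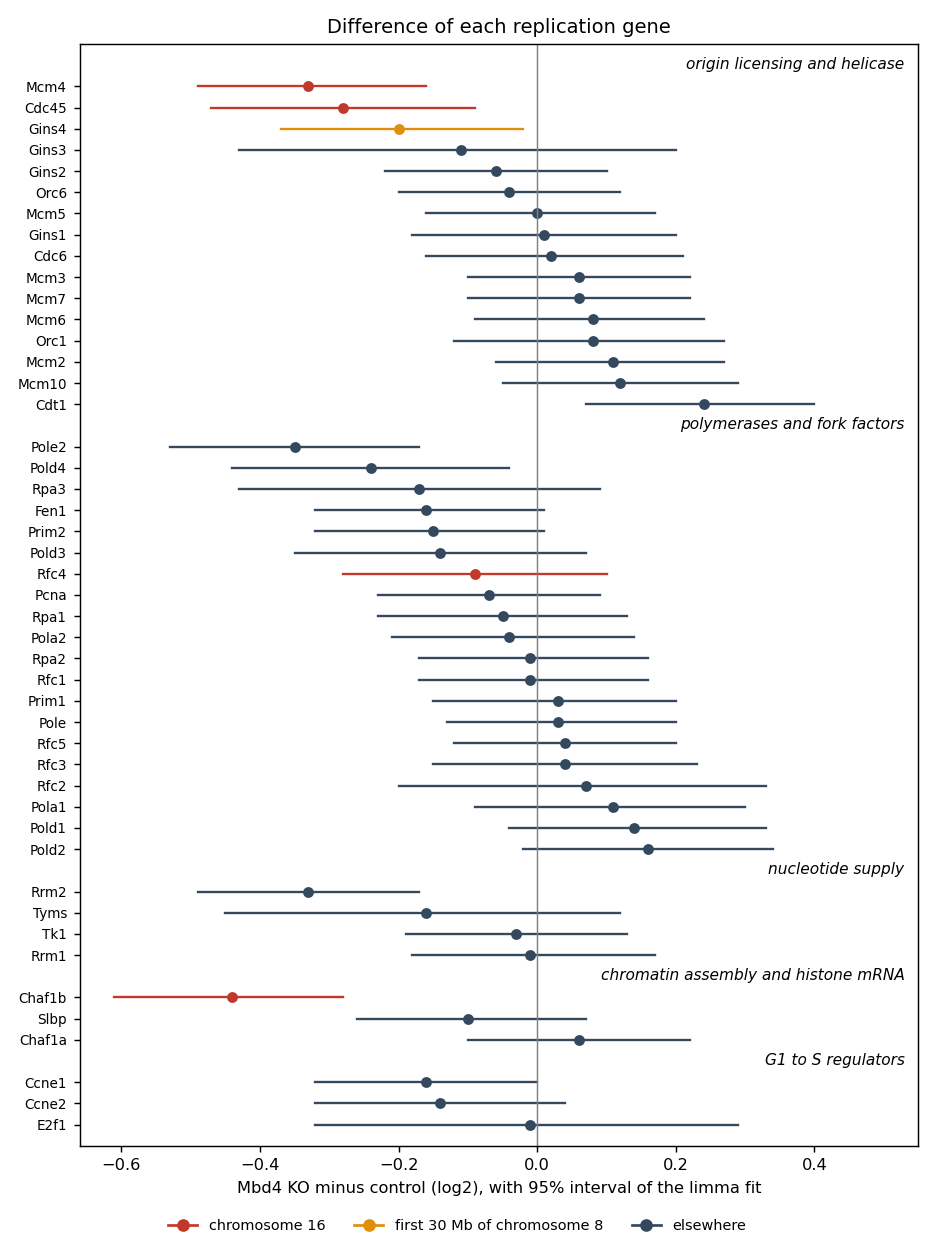
Mbd4 KO minus control difference (log2) of each of the 46 replication genes, grouped by role, with the 95% interval of the limma fit over 2 arrays per group. Red marks genes on chromosome 16 and orange the first 30 Mb of chromosome 8; most intervals span zero, and Chaf1b at -0.44 lies lowest.

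Among origin licensing and helicase genes, Mcm4 and Cdc45 were lower and Cdt1 was higher on both Mbd4 KO arrays, while the other MCM subunits lay close to zero. None of the 16 passed the adjusted test, and their median difference was 0.02. Mcm4, a catalytic subunit of the MCM ring, was at 11.73 and 11.73 (log2) on the control arrays and at 11.38 and 11.43 on the Mbd4 KO arrays. The groups did not overlap, and the control values were equal to 2 decimals. The difference was -0.33 (SE 0.066; 1.25-fold lower), with a limma adjusted p of 0.0991.

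The 5 other subunits of the ring had differences from 0.00 to 0.11, none below zero, with a median of 0.06. Mcm7, the brightest licensing gene, was at 12 and 12.02 on the control arrays and at 12.05 and 12.09 on the Mbd4 KO arrays (difference 0.06, SE 0.066; limma adjusted p = 0.758). Mcm5, chosen after its values were seen as the subunit nearest zero, was at 11.47 and 11.46 against 11.44 and 11.50. Mcm2 differed by 0.11, Mcm6 by 0.08 and Mcm3 by 0.06, and Mcm10, which helps to activate the helicase and is no subunit of the ring, by 0.12. The subunits of 1 ring thus differed in sign, although a difference between Mcm4 and the others was not tested as such.

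Cdc45, which joins the ring to make the active helicase, was at 10.23 and 10.31 on the control arrays and at 9.93 and 10.06 on the Mbd4 KO arrays. Both Mbd4 KO arrays were lower, by 0.28 on average (difference -0.28, SE 0.078), but the limma adjusted p of 0.204 missed the threshold. The GINS complex, which binds beside Cdc45, has 4 subunits with a median difference of -0.09. Gins4 was at 10.24 and 10.33 against 10.06 and 10.10 on the Mbd4 KO arrays (difference -0.20, SE 0.071; limma adjusted p = 0.303), again without overlap. Gins3, the dimmest licensing gene, was at 8.81 and 9.04 on the control arrays and at 8.66 and 8.97 on the Mbd4 KO arrays; its groups overlapped, and its difference of -0.11 was smaller than its SE of 0.13. Gins1 differed by 0.01 and Gins2 by -0.06.

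Of the factors that load the ring, Cdt1 stood out in the opposite direction and is named for that after its values were seen. It was at 9.84 and 9.83 on the control arrays and at 10.05 and 10.09 on the Mbd4 KO arrays. The groups did not overlap, and the difference of 0.24 (SE 0.066; 1.18-fold higher) had a limma adjusted p of 0.203. The other loading factors lay near zero: Cdc6, the loading ATPase, differed by 0.02, and the origin recognition subunits Orc1 and Orc6 by 0.08 and -0.04.

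Among the 20 polymerase and fork genes none passed the test either, and their median difference was -0.02. The largest differences were those of 2 accessory polymerase subunits, Pole2 and Pold4. Pole2, the second subunit of the leading-strand polymerase epsilon, was at 11.19 and 11.26 on the control arrays and at 10.93 and 10.82 on the Mbd4 KO arrays. It was lower on both (difference -0.35, SE 0.075; 1.28-fold; limma adjusted p = 0.109), while Pole, the catalytic subunit of the same polymerase, differed by 0.03. Pold4, the smallest subunit of polymerase delta, which makes the lagging strand, was at 10.23 and 10.29 against 9.94 and 10.10. Its groups did not overlap (difference -0.24, SE 0.081; limma adjusted p = 0.284). Within polymerase delta the catalytic subunit Pold1 differed by 0.14, Pold2 by 0.16 and Pold3 by -0.14. In all 4 subunits the groups were apart, in 2 as higher and in 2 as lower. Groups were apart in 29 of the 46 genes and in 9799 of all 21789 clusters.

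Polymerase alpha with primase, which lays the primers, had a median difference of -0.01 over Pola1 (0.11), Pola2 (-0.04), Prim1 (0.03) and Prim2 (-0.15). Pcna, the sliding clamp, was the brightest gene of its group and was at 12.74 and 12.75 on the control arrays and at 12.69 and 12.65 on the Mbd4 KO arrays. The Mbd4 KO arrays were lower, by little (difference -0.07, SE 0.066; limma adjusted p = 0.693), and its second cluster differed by -0.08. Fen1, the nuclease that trims Okazaki fragments, was the dimmest gene of the group, at 9.62 and 9.65 against 9.45 and 9.51 (difference -0.16, SE 0.068; limma adjusted p = 0.386), with both Mbd4 KO arrays lower.

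The 5 subunits of the clamp loader RFC had a median difference of 0.04. Rfc4 is the subunit on chromosome 16, at 11.95 and 12 on the control arrays and at 11.95 and 11.81 on the Mbd4 KO arrays. Its groups overlapped, since the first Mbd4 KO array equalled the lower control array to 2 decimals (difference -0.09, SE 0.078; limma adjusted p = 0.667). Rfc1 differed by -0.01, Rfc2 by 0.07 and Rfc3 and Rfc5 by 0.04 each. The RPA subunits, which coat single strands, lay at -0.05 (Rpa1), -0.01 (Rpa2) and -0.17 (Rpa3). The second cluster of Rpa3 lay at 0.06, so its clusters disagreed in sign.

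In nucleotide supply all 4 genes had differences below zero, those of Rrm1 and Tk1 by little, and that of Rrm2 was the largest. Below zero were also 9245 of all 21789 clusters, and 6 of 14 other genes of nucleotide supply. Rrm2 encodes the small subunit of ribonucleotide reductase, whose level limits the enzyme in S phase, and was at 12.13 and 12.15 on the control arrays and at 11.81 on both Mbd4 KO arrays. The gap between the groups was many times the gap within them. The difference was -0.33 (SE 0.065; 1.26-fold lower), with a limma adjusted p of 0.0954. Rrm1, the large subunit of the same enzyme, was at 12.22 and 12.29 against 12.29 and 12.21, so its groups overlapped (difference -0.01, SE 0.072; limma adjusted p = 0.98). Tyms, thymidylate synthase, was at 11.29 and 11.24 on the control arrays and at 11.27 and 10.93 on the Mbd4 KO arrays. Only the second Mbd4 KO array was lower, and the difference of -0.16 (SE 0.12) had a limma adjusted p of 0.602. Tk1, thymidine kinase, was at 10.53 and 10.54 against 10.50 and 10.51 (difference -0.03), lower without overlap by little, and its second cluster differed by 0.05. None of the 4 genes passed.

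Chromatin assembly held the 1 change that passed. Chaf1b encodes the WD-repeat subunit of CAF-1, the chaperone that PCNA brings to the fork to deposit new histones, and was at 10.33 and 10.39 on the control arrays and at 9.93 and 9.90 on the Mbd4 KO arrays. Both Mbd4 KO arrays were lower by more than the spread within either group. Chaf1b fell by 0.44 on the log2 scale (SE 0.068; 95% interval -0.61 to -0.28), 1.36-fold, with a limma adjusted p of 0.0476. The call sat just inside the threshold. Quantile normalization ended it (limma adjusted p = 0.0574). Testing all clusters of the table (0.194) and leaving the variance unmoderated (0.298) ended it too. Those 2 settings called only 22 of 35556 and 0 of 21789 clusters, so they say little about Chaf1b itself. The call was also lost with each array left out, where 1 group keeps 1 array, at differences from -0.47 to -0.41. It held with a robust prior (0.0494), cyclic loess normalization (0.0485) and averaging of clusters within genes (0.0439). Removing the dimmest 30% of clusters (0.0168) or adding an intensity trend (0.000804) gave smaller adjusted p-values. An exact permutation test of 2 arrays against 2 cannot give a p below 0.333.

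Chaf1a, the large subunit of CAF-1, was at 9.56 and 9.51 on the control arrays and at 9.58 and 9.61 on the Mbd4 KO arrays (difference 0.06, SE 0.067; limma adjusted p = 0.754). It was slightly higher on both Mbd4 KO arrays, where its partner was lower. Slbp, which binds the stem-loop of histone mRNA, was at 10.27 and 10.33 against 10.21 and 10.19 (difference -0.10, SE 0.068; limma adjusted p = 0.594). Its second cluster differed by -0.06, with overlapping groups.

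The regulators of the G1 to S step did not pass. Ccne1, a cyclin that drives entry into S phase, was at 10.93 and 10.97 on the control arrays and at 10.77 and 10.80 on the Mbd4 KO arrays (difference -0.16, SE 0.066; limma adjusted p = 0.362). Ccne2, the other cyclin E, was at 9.02 on both control arrays and at 8.82 and 8.94 on the Mbd4 KO arrays (difference -0.14, SE 0.074; limma adjusted p = 0.487). Both cyclins were lower without overlap, as were 18.3% of all clusters and 25.3% of other genes at least as bright as the dimmest replication gene. E2f1, an E2F activator, was at 9.43 and 9.71 on the control arrays and at 9.44 and 9.68 on the Mbd4 KO arrays. Its spread within each group was far larger than its difference of -0.01, so its interval reached from -0.32 to 0.29.

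**Figure D2:**
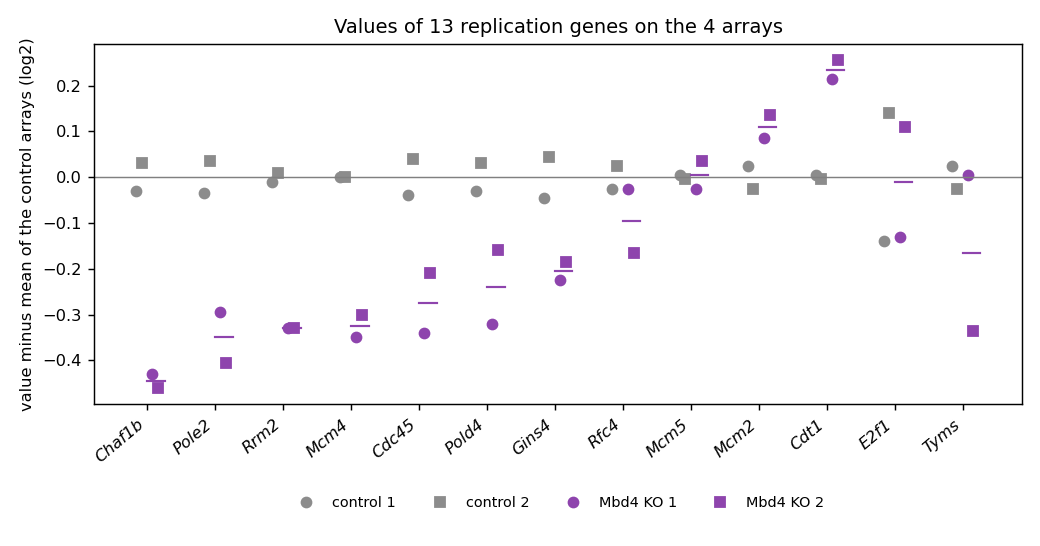
Values of 13 replication genes on the 4 arrays (log2, minus the mean of the 2 control arrays); grey points are control arrays, purple points Mbd4 KO arrays and purple lines the Mbd4 KO mean. From Chaf1b to Gins4 both Mbd4 KO arrays lie below both control arrays, Cdt1 lies above, and E2f1 spreads as widely within the groups as between them.

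Position on the chromosome went with the difference. The 4 genes on chromosome 16 (Mcm4, Cdc45, Rfc4 and Chaf1b) had differences from -0.44 to -0.09 and a median of -0.30. Other genes of that chromosome were lower as well. Among the 221 at least as bright as the dimmest replication gene the median was -0.29, with 218 below zero (98.6%), and 22 passed (9.95%). Over all 644 other genes of chromosome 16, dim ones included, the median was -0.11. Gins4 lies in the first 30 Mb of chromosome 8, where all 35 other bright genes lay below zero, with a median of -0.33, against 0.02 for the 277 bright genes of the rest of that chromosome. Over all 200 other genes of this stretch the median was -0.07, with 62.5% below zero. The limit to bright genes was chosen after the values were seen. Ending the stretch at 20 Mb, which leaves Gins4 outside it, or at 40 Mb gave -0.33 again over bright genes, and -0.04 and -0.07 over all. Copy number was not measured, and its part in these differences was not tested.

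Without these 5 genes the list moved little. The other 41 had a median difference of -0.01, against 0.02 for 5919 bright genes elsewhere, and 0 of them passed by limma. At an unadjusted p under 0.05 there were 4 (9.76%; 12.6% of those bright genes). The Mbd4 KO arrays lay below the control arrays in 14 (34.1%; 22.2%) and above them in 11 (26.8%; 32.2%). When the clusters of chromosome 16 and of the first 30 Mb of chromosome 8 were left out of the fit, the smallest limma adjusted p among the replication genes was 0.116. On the 17 chromosomes other than 8, 12 and 16 the medians of bright genes lay between 0.01 and 0.04.

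Each gene was then set beside its nearest bright neighbours, up to 10 on each side. That gave 20 for each gene except Mcm10 and Rpa3 (15 each) and Rfc3 (10), whose windows met a chromosome end. On chromosome 16 the neighbours of Mcm4 had a median of -0.29, and 6 of them lay lower than Mcm4. For Cdc45 the median was -0.30, with 11 neighbours lower. Around Rfc4 it was -0.24, with 19 of 20 lower than Rfc4, which thus lay above nearly all of its neighbours. Chaf1b lay below most of its own, which had a median of -0.28, with 2 of 20 lower. Gins4, at the start of chromosome 8, lay above its neighbours' median of -0.32, with 14 lower.

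The nearest measured genes were lower too where they were bright. Beside Mcm4, Ube2v2, a ubiquitin-conjugating enzyme variant, differed by -0.29 and Prkdc, the catalytic subunit of DNA-PK, by -0.26. Ufd1, the segregase cofactor that starts opposite Cdc45, was at 10.29 and 10.23 on the control arrays and at 9.87 and 9.91 on the Mbd4 KO arrays (difference -0.37; limma adjusted p = 0.0809). Both genes of that head-to-head pair were thus lower, as were all 20 bright neighbours of Cdc45, while the dim gene Cldn5 on its other side differed by -0.01. Next to Chaf1b, Morc3 differed by -0.34 (limma adjusted p = 0.0991) and the dim gene Cldn14 by -0.09. Rfc4 lies between Eif4a2, a translation initiation helicase, at -0.23 and the dim Adipoq at 0.07. Gins4 lies between Gpat4 at -0.13 and Golga7 at -0.36 (limma adjusted p = 0.0989).

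Rrm2 and Pole2 lie on chromosome 12, where bright genes had a median of -0.08, with 164 of 217 below zero (75.6%), and all 650 other genes a median of -0.02, with 353 below zero (54.3%). None of the 20 bright neighbours of Rrm2 was as low as Rrm2; they ranged from -0.22 to 0.11. Around Pole2 they ranged from -0.53 to 0.07, with 1 lower than Pole2. That gene was Klhdc2, a substrate receptor of a ubiquitin ligase, which fell by 0.53 (limma adjusted p = 0.0449). Pold4, Fen1 and Prim2, on chromosomes 19, 19 and 1, also lay below all 20 of their neighbours, whose medians were 0.02, 0.02 and 0.05. They were picked from the 46 genes for that after the values were seen, and none of them passed by limma. Cdt1, in the part of chromosome 8 beyond the first 30 Mb, lay above 19 of its 20 neighbours. Over all 46 genes the difference minus the neighbours' median had a median of -0.01, from -0.25 to 0.21, with 24 below zero.

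**Figure D3:**
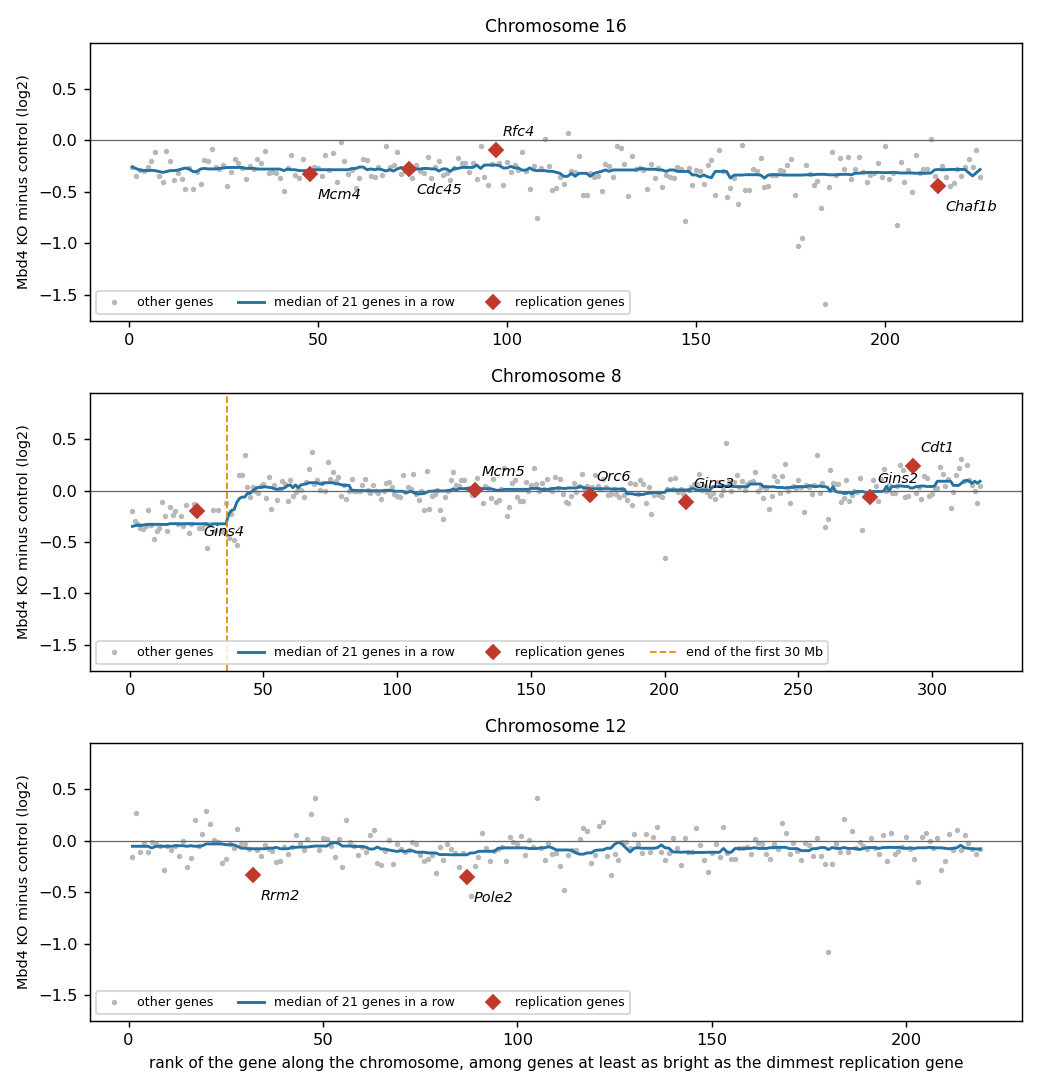
Mbd4 KO minus control difference (log2) of genes at least as bright as the dimmest replication gene, by rank along chromosomes 16, 8 and 12; red diamonds are replication genes and the blue line is the median of 21 genes in a row. The line lies below zero along chromosome 16 and at the start of chromosome 8, and Rrm2 and Pole2 lie well below the line of chromosome 12.

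A further 88 genes of the same processes were listed, and 84 of them were measured. None passed by limma. Where 13.8% of all clusters had an unadjusted limma p under 0.05, 15 of these 84 genes did, 7 as lower and 8 as higher. The median difference of the 84 was 0.02. By role the medians were 0.03 for 16 licensing and firing genes, 0.00 for 18 fork and Okazaki genes, 0.04 for 14 genes of nucleotide supply, 0.01 for 13 of chromatin assembly and 0.02 for 23 regulators of the G1 to S step. An E2F-type motif was found for 21 of the 68 genes with a promoter (30.9%).

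The lowest adjusted p among them was that of Tfdp2, a dimerization partner of E2F factors. It was at 8.5 on both control arrays and at 8.89 on both Mbd4 KO arrays (difference 0.39, SE 0.065; limma adjusted p = 0.0587). Its relative Tfdp1, on the first 30 Mb of chromosome 8, is named after its values were seen. The brighter of its 2 clusters was at 11.54 and 11.55 against 11.29 and 11.30 (difference -0.25, limma adjusted p = 0.177). By these clusters the partners differed in opposite directions, each without overlap, and neither passed. Of all clusters, 26.7% were higher without overlap and 18.3% lower. Ccnd1, cyclin D1, was at 10.50 and 10.42 on the control arrays and at 10.73 and 10.79 on the Mbd4 KO arrays (difference 0.31; limma adjusted p = 0.135).

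Among licensing and firing genes, Orc3, an origin recognition subunit, differed by -0.31 (limma adjusted p = 0.145). Donson, a helicase assembly factor on chromosome 16, differed by -0.29 (0.236). At the fork, Dscc1, which belongs to an alternative clamp loader, differed by 0.27 (0.19), while Top1, the topoisomerase that relaxes DNA ahead of it, differed by -0.26 (0.167). In nucleotide supply Dck, deoxycytidine kinase, differed by -0.23 (0.217) and the purine synthesis gene Gart on chromosome 16 by -0.21 (0.252). For chromatin, the histone chaperone gene Nasp differed by -0.14 (0.504) and Dnmt1, which copies DNA methylation to the new strand, by 0.12 (0.567). Single arrays moved both: Dnmt1 differed by 0.21 without the first Mbd4 KO array and by 0.04 without the second, and Nasp by -0.07 without the second control array. Donson differed by -0.19 without that control array. All 8 genes, named for the largest differences of their lists, were apart between the groups. So were 44 of the 84 genes measured and 9799 of all 21789 clusters. The largest differences ran in both directions.

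Genes of the next phase showed no call. Of 20 genes of G2 and mitosis 19 were measured, with a median difference of -0.02 and a range of -0.17 to 0.10. By limma 0 passed, and 0 had an unadjusted p under 0.05. The 95% intervals of the limma fit reached 0.16 to 0.25 to either side, so smaller differences could not be seen.

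**Figure D4:**
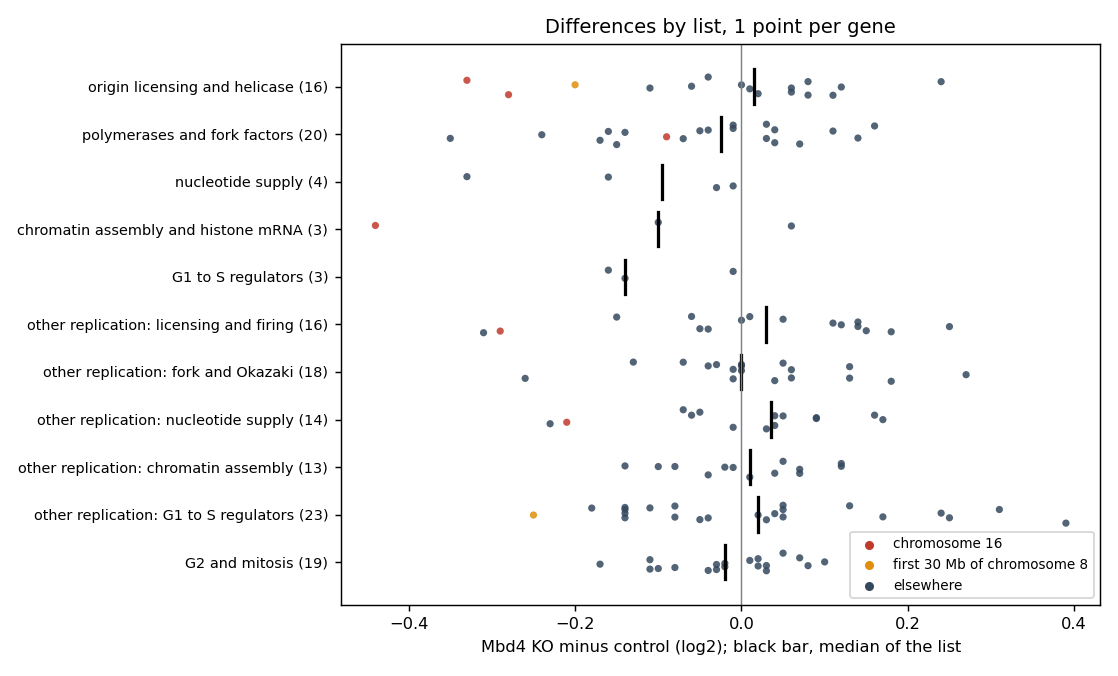
Mbd4 KO minus control difference (log2) of each gene in the 5 groups of replication genes, in 5 lists of other replication genes and in the list of G2 and mitosis genes, with the number measured in brackets. Black bars are medians, which lie between -0.14 and 0.04, and the genes of chromosome 16 (red) all lie below zero.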

How the data were processed

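RNA of 4 samples, 2 control and 2 Mbd4 KO, was measured on 1-colour Affymetrix whole-transcript arrays and grouped by sample title. The authors deposited 1 log2 value for each transcript cluster on each array, made with RMA per the submitters' processing notes. The sources used here name neither the software and its version nor the array's build. RMA corrects background, normalizes by quantiles and summarises probes, so a shift common to all genes would not be seen, and no signal over background was available. At most 39 of 35556 values were identical between any pair of arrays.

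The 21789 clusters with 1 symbol in the platform's table of genes (some names may be old) were fitted with lmFit and eBayes of limma 3.58.1 (R 4.3.3; no trend, no robust prior). Tests were two-sided; p-values were adjusted over all of them by Benjamini-Hochberg, with a threshold of 0.05. SE values are limma's moderated ones (2 residual and 4 prior degrees of freedom, median 0.0776). The number of arrays limits the precision. The fit was tested on simulated data. Another 1621 clusters have several symbols and 12146 none in that table, and they were not used. Chromosomes and gene order came from RefSeq annotation of GRCm38.p6, which placed 19856 of 19938 genes. Promoters came from the RefSeq table of the same build. Proteins were not analysed here. The replication genes and all lists were chosen with earlier results of these data known, so their counts are descriptions.

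Named in full were each replication gene that passed, the brightest, the dimmest and those with the 2 largest differences in each group, those on chromosome 16 or the first 30 Mb of chromosome 8 with their nearest measured neighbours, and the 2 largest differences in each list of other replication genes. Other names are said to be chosen after their values were seen, or are given as a difference only. Alternatives were leaving out each array, a block for the replicate number, an intensity trend, a robust prior, no moderation, cyclic loess or quantile normalization, removing the dimmest 30% of clusters, all clusters, the mean of a gene's clusters and other ends of the stretch on chromosome 8. Leaving out the clusters of chromosome 16 and of that stretch, setting chromosome 12 aside as well, and the limit to bright genes were chosen after seeing the data. Plots were made in matplotlib 3.10.9.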

Additional observations from a re-analysis of the deposited data

How the results depend on the processing

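Among the replication genes limma called 1, Chaf1b, and the count was again 1 with a robust prior, cyclic loess normalization or the mean of a gene's clusters. It was 6 with an intensity trend (Mcm4, Cdt1, Cdc45, Rrm2, Pole2 and Chaf1b) and 4 without the dimmest 30% of clusters (Mcm4, Rrm2, Pole2 and Chaf1b). These settings called 1121 of 21789 (5.14%) and 640 of 15252 clusters (4.2%), where the main fit called 302 of 21789 (1.39%). It was 0 with the replicate block (adjusted p of Chaf1b 0.0911, with 159 clusters called in all) and with no moderation of the variance (0.298, with 0 called in all). With quantile normalization (0.0574) and with all clusters of the table (0.194, with 22 of 35556 called) it was 0 too. Chaf1b also lost the call with each array left out, at differences from -0.47 to -0.41, where 1 group is left with 1 array. The count was also 0 without the clusters of chromosome 16 and the start of chromosome 8 (194 of 20875 called), which takes Chaf1b itself out. The other replication genes had 0 calls, 9 with an intensity trend (Orc3, Chtf8, Dscc1, Top1, Gart, Tfdp1, Tfdp2, Ccnd1 and Myc), 1 without the dimmest clusters (Tfdp2), and 0 under the other settings, each array left out included. The cause of these changes was not tested. Over 29 named genes and 399 values under alternatives, 369 kept direction and call, 8 lost the call (all Chaf1b), 14 gained one and 0 reversed a call. The other 8, of Rrm1, Gins3, Tyms and Tk1, changed sign without a call under either setting. The median over the replication genes moved by less than the spread between arrays in all 14 settings tried. Same-numbered arrays deviated together little (correlation 0.0831 over 2 pairs), so the numbers were not taken as pairing. Precision is limited by 2 arrays per group. The chromosome medians depend on the limit to bright genes: over all other genes the median was -0.11 on chromosome 16 and -0.07 in the first 30 Mb of chromosome 8, over bright ones -0.29 and -0.33. With 2 residual degrees of freedom the SE rests largely on the prior shared by all clusters.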
